A study of Mus musculus with 6 samples.

Results

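The insulin-like growth factor (IGF) genes described here are 10 members of a secreted growth factor system: the ligands Igf1 and Igf2, the receptors Igf1r and Igf2r, and the binding proteins Igfbp2, Igfbp3, Igfbp4, Igfbp5, Igfbp6 and Igfbp7. They were taken by gene symbol from a count table of 24516 genes, and all 10 were found in it. RNA came from an iMGT-Myh6-eGFP-MEF line, mouse embryonic fibroblasts carrying the cardiac transcription factors Mef2c, Gata4 and Tbx5 (MGT) under doxycycline control (1 ug/mL) and a Myh6-eGFP reporter that marks cells turning towards a cardiomyocyte fate. Cells had been transfected the day before induction with siRNA against H1f0, which encodes the linker histone H1.0 (siH1f0), with siRNA against Junb, a subunit of the transcription factor AP-1 (siJunb), or with a control siRNA (siControl). Each group had 2 libraries of poly(A) RNA, labelled as biological replicates, and all 3 groups carried the induced MGT factors, so no value here shows what induction itself does. By the sample labels the cells were harvested on day 1 of MGT expression; by the series design they were taken on day 3 as sorted GFP+ cells, and the files do not settle which holds. All cells came from the same engineered line, and the sources used here do not give the siRNA sequences.

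In this system IGF1 and IGF2 are secreted and activate IGF1R, a tyrosine kinase of the insulin receptor family that signals through IRS proteins, PI3 kinase and AKT. IGF2R, the cation-independent mannose 6-phosphate receptor, has no kinase: it takes up IGF2 for breakdown and sorts newly made lysosomal enzymes. The binding proteins hold the ligands outside the cell and are themselves cut by proteases, which frees the ligand. In fibroblasts and muscle cells the system is known for its part in growth, survival and differentiation.

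Promoter sequences are shown for the members whose RNA passed a test after Junb knockdown, Igfbp5, Igfbp4 and Igf2r, and for the 2 windows that hold an AP-1 motif, since Junb encodes an AP-1 subunit. Each is the 250 bases before a RefSeq transcript start in GRCm38.p6, written 5′ to 3′ on the gene's strand. Capitals mark the motifs named after the sequences. The Igfbp5 window is chr1:72874866-72875115 on the minus strand, that of Igfbp4 is chr11:99040994-99041243 on the plus strand, and that of Igf2r is chr17:12769707-12769956 on the minus strand. The Igf1 window is chr10:87860861-87861110 on the plus strand, and the Igfbp2 window, at the more downstream of its annotated starts, is chr1:72825137-72825386 on the plus strand.
Igfbp5: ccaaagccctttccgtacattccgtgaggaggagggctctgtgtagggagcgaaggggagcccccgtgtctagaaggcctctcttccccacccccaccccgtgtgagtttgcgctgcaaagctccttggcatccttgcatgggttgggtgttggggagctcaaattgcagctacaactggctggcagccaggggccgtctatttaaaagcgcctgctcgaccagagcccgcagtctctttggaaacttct
Igfbp4: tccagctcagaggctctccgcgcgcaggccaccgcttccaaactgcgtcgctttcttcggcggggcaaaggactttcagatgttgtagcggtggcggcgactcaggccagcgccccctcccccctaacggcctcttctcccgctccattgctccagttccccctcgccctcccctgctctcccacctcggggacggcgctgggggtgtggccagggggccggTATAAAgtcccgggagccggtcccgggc
Igf2r: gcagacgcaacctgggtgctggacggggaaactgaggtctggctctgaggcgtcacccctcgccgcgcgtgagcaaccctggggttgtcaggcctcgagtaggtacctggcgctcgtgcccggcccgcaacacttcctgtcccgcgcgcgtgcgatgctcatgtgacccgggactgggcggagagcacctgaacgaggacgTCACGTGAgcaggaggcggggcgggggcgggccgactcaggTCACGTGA
Igf1: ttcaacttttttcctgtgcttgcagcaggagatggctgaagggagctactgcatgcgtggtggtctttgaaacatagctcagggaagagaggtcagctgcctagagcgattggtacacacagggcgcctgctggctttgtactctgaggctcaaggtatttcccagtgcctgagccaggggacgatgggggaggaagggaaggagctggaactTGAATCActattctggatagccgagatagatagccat
Igfbp2: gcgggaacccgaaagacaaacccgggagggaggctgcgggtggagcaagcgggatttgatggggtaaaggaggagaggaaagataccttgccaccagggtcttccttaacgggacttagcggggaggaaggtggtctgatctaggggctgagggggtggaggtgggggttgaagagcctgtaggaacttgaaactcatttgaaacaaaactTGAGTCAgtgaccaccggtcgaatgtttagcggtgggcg
All 10 members matched a RefSeq entry, with 14 windows among them. The AP-1 motif TGANTCA, searched on both strands, was found in 2 of these windows: in that of Igf1 (TGAATCA, 30 bases before the start) and in that of Igfbp2 (TGAGTCA, 32 bases before the start). It occurs in 6.75% of all 32851 mouse windows of this length. The cAMP response element TGACGTCA, held by 1.55% of all windows, was in 0 of the 14. The letters TATAAA, also searched on both strands and held by 12.4%, were in the Igfbp4 window, 22 bases before the start. In the Igfbp6 window they were on the other strand only, read as TTTATA 142 bases before the start. The Igf2r window carries the palindrome TCACGTGA at 2 places, an 8-base E-box that was looked for only after the sequence had been read and that 0.785% of all windows hold. Igfbp5 has none of these motifs in its window, which has a GC content of 58.8% and 10 CpG dinucleotides, against medians of 52.4% and 6 over all windows. The Igf2r and Igfbp4 windows are both 69.2% GC, with 27 and 22 CpG dinucleotides. A match is a run of letters in this window, not a site shown to be bound.

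The libraries held 48690447 to 85979630 counts. Junb RNA stood at 30.4 and 31.7 CPM (counts scaled to a common library total) in siH1f0, at 10.5 and 8.73 in siJunb and at 39.5 and 35.6 in siControl, and H1f0 at 52.3 and 55.3 CPM in siH1f0, 653 and 638 in siJunb and 808 and 741 in siControl. In edgeR's quasi-likelihood test, with Benjamini-Hochberg adjustment over the 13427 genes tested, H1f0 fell by 3.86 ± 0.06 (log2 fold change ± SE) in siH1f0 (adjusted p = 7.12e-09) and Junb fell by 1.93 ± 0.09 in siJunb (adjusted p = 1.6e-05), both against siControl. H1f0 was also called lower in siJunb against siControl (-0.23 ± 0.05, adjusted p = 0.0210). Junb in siH1f0 against siControl gave -0.29 ± 0.08 and did not pass (adjusted p = 0.0778), although it passed with DESeq2 (0.0443) and with no count filter (0.00233). The replicates of siControl stood apart from each other. Over the genes tested their counts differed with a chi-square of 74.6 per degree of freedom, against 3.85 in siH1f0 and 3.80 in siJunb. The ribosomal RNA row Rn45s, which is part of that chi-square, held 18980 CPM of siControl 1 but 6274 CPM of siControl 2. How much of the 74.6 comes from Rn45s was not tested. Rn45s held 3082 and 3479 CPM in siH1f0 and 6547 and 4986 CPM in siJunb, so that both siH1f0 libraries were lowest, and its part in the results was not tested. Of 10 fibroblast markers, Col1a1 (1254 to 1410 CPM) and Vim (2575 to 2889 CPM) were abundant, whereas Thy1 and Lum reached at most 0.0116 and 0.0313 CPM. Of the 8 tested, 2 were called in siH1f0 against siControl, Dcn (0.65) and Col1a2 (0.34), both higher. In siJunb against siControl 2 were called, Dcn (1.68) and Pdgfra (0.27), both higher. In siH1f0 against siJunb 5 were called: Col1a2 (0.40) was higher, and Dcn (-1.03), Pdgfra (-0.31), Pdgfrb (-0.20) and Vim (-0.18) were lower. Over all genes tested 6.55%, 16.5% and 25.9% were called in these 3 comparisons. Markers of other cell types were near 0 for endothelium (summed, at most 0.304 CPM) and epithelium (at most 0.0337 CPM), and low for adipocytes (at most 0.411 CPM), skeletal muscle (at most 0.700 CPM) and leukocytes (1.20 to 2.12 CPM). Cartilage and bone markers summed to 33.6 to 41.8 CPM, and those of smooth muscle and pericytes and of cardiomyocytes, which differed between groups, are given beside Igfbp7 and Igfbp5. In these bulk libraries, fewer cells of a type and less RNA per cell cannot be told apart.

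Per unit of transcript length, the receptors and Igfbp7 dominated and the ligands were almost absent. Levels are given here in TPM (transcript levels per unit length, computed with the gene lengths in the deposited table) as mean ± SD over the 6 libraries. Igf2r was highest, at 130.5 ± 14.2 TPM, followed by Igfbp7 at 83.0 ± 13.6 TPM, Igf1r at 35.8 ± 2.12 TPM, Igfbp6 at 21.5 ± 3.59 TPM and Igfbp4 at 19.5 ± 2.76 TPM. Igfbp6 (16.5 to 25.3 TPM) and Igfbp4 (15.9 to 21.9 TPM) overlapped, so their order is not separated by the spread. Below them came Igfbp3 at 2.99 ± 0.325 TPM, Igfbp5 at 0.350 ± 0.203 TPM, Igf2 at 0.0968 ± 0.0541 TPM and Igf1 at 0.0163 ± 0.0125 TPM. The ranges of Igfbp5 and Igf2 also overlapped, although within each of the 6 libraries Igfbp5 was the higher. Igfbp2 had 0 counts in every library.

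**Figure D1:**
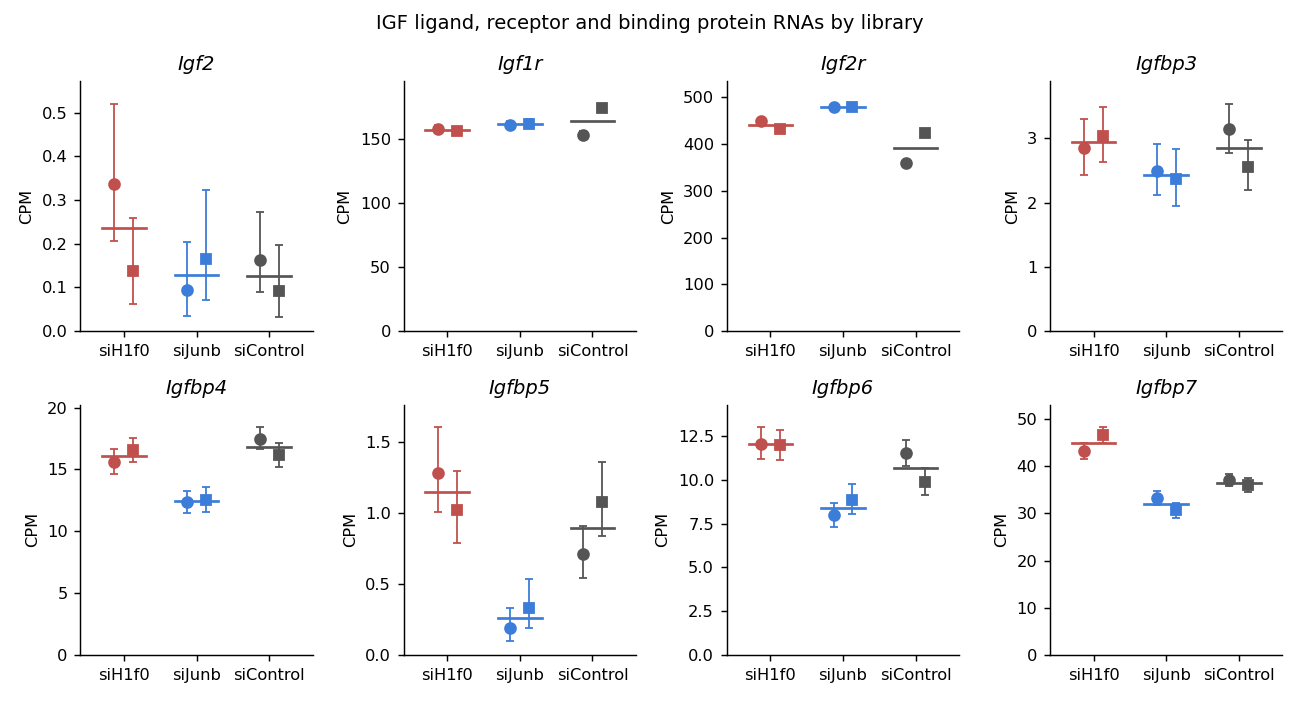
CPM of the 8 tested members in each library, on linear axes from 0, with circles for replicate 1, squares for replicate 2, a line at each group's mean and bars for the exact Poisson 95% interval, which covers counting error only. The siJunb points of Igfbp4, Igfbp5, Igfbp6 and Igfbp7 lie below those of both other groups, and the siControl points of Igf1r and Igf2r are the furthest apart.

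The ligand genes gave too few reads for most comparisons. Igf1, on chr10:87858265-87937042 (plus strand, GRCm38, GENCODE vM21), had 3 and 7 counts in siH1f0, 2 and 0 in siJunb and 7 and 2 in siControl. That is 21 reads in all, and it did not pass the low-count filter and was not tested. Igf2, an imprinted fetal growth factor on chr7:142650766-142666816 (minus strand), had 20 and 9 counts in siH1f0, 6 and 8 in siJunb and 14 and 6 in siControl. The groups overlapped. Igf2 passed the filter with 3 of the 6 libraries at or over its level of 0.154 CPM, and its log2 fold changes had SEs of 0.61 to 0.70: 0.82 ± 0.61 for siH1f0 against siControl (adjusted p = 0.475), -0.02 ± 0.70 for siJunb against siControl (adjusted p = 0.988) and 0.84 ± 0.66 for siH1f0 against siJunb (adjusted p = 0.390). A library left out moved these values widely: siH1f0 against siControl gave 0.0553 without siH1f0 1, 1.35 without siH1f0 2, 1.32 without siControl 1 and 0.51 without siControl 2, and siH1f0 against siJunb gave 0.0748 without siH1f0 1, 1.37 without siH1f0 2 and 0.46 without siJunb 1. No difference in Igf2 was detected at this depth. H19, the imprinted neighbour of Igf2 expressed from the other parental allele, had at most 0.168 CPM, and Ins2 had 0 counts. The antisense gene Igf2os had 2 counts in all. Because the sources used here do not say whether counting used strand, reads of Igf2 and Igf2os cannot be told apart.

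The receptors were abundant, and the call on Igf2r was on the siJunb side. Igf2r, on chr17:12682406-12769664 (minus strand), was at 449.6 and 431 CPM in siH1f0, 478 and 479 CPM in siJunb, against 359.6 and 424 CPM in siControl. The siJunb libraries were the highest 2 of the 6, and the siControl libraries were the lowest 2 and differed most from each other. Igf2r rose in siJunb against siControl by 0.32 ± 0.08 on the log2 scale (adjusted p = 0.0228). That call rests on several libraries: without siH1f0 1 or siH1f0 2 the adjusted p was 0.0563 and 0.0547, without siJunb 1 or siJunb 2 it was 0.150 and 0.151, and the log2 fold change was 0.20 without siControl 1 and 0.45 without siControl 2, with the call kept in both. With only the 4 libraries compared its adjusted p was 0.0584. For siH1f0 against siControl the log2 fold change was 0.15 ± 0.08 (adjusted p = 0.270), and for siH1f0 against siJunb it was -0.17 ± 0.08 (adjusted p = 0.137). The siH1f0 against siControl value was 0.28 without siControl 2 and 0.03 without siControl 1. Fits without siControl 1 or siControl 2 hold 1 siControl library, so their p-values carry no spread between siControl libraries. The direct comparison passed without siControl 1 (adjusted p = 1.73e-07), without siControl 2 (2.77e-07), with only the 4 libraries compared (5.98e-07) and with no count filter (0.0115). Airn, an antisense RNA that overlaps Igf2r and silences it on the paternal allele, was at 1.56 to 2.18 CPM in the 6 libraries and was not called in any comparison.

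Igf1r, on chr7:67952827-68233668 (plus strand), was at 157.9 and 156 CPM in siH1f0, 161 and 162 CPM in siJunb, against 153 and 175 CPM in siControl. The siControl libraries lay on either side of all the others. None of the Igf1r comparisons passed: the log2 fold change was -0.08 ± 0.07 for siH1f0 against siControl (adjusted p = 0.533), 0.02 ± 0.07 for siJunb against siControl (adjusted p = 0.897) and -0.09 ± 0.07 for siH1f0 against siJunb (adjusted p = 0.344). The values turned on the siControl libraries. In siH1f0 against siControl Igf1r gave -0.18 without siControl 1 and 0.02 without siControl 2. In siJunb against siControl it gave -0.08 without siControl 1 and 0.11 without siControl 2. Each of these fits holds 1 siControl library and carries no spread between siControl libraries. Leaving out both siControl libraries took the direct comparison past the threshold, at adjusted p = 0.0116. The ratio of Igf2r to Igf1r, taken in TPM within each library, was 3.82 and 3.70 in siH1f0, 3.97 and 3.96 in siJunb and 3.14 and 3.26 in siControl. The 3 groups did not overlap in this ratio. No test was made of it.

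Among the binding proteins Igfbp5 had the largest fold changes. IGFBP5 is a secreted protein that binds both ligands and the matrix, and its gene lies on chr1:72857932-72874884 (minus strand), tail to tail with Igfbp2 (0 counts) with 5457 bases between their ends. Igfbp5 was at 1.28 and 1.02 CPM in siH1f0, 0.188 and 0.329 CPM in siJunb, against 0.709 and 1.08 CPM in siControl, from 76 and 67, 12 and 16, and 61 and 71 counts. The 2 siJunb libraries lay below the other 4, and siH1f0 and siControl overlapped. In siJunb Igfbp5 fell by 1.77 ± 0.39 on the log2 scale against siControl, to 0.293 times its level there (adjusted p = 0.0175), and in siH1f0 it was 4.39-fold higher than in siJunb (log2 2.13 ± 0.38, adjusted p = 0.0043). Its siH1f0 against siControl value was 0.36 ± 0.30 (adjusted p = 0.519). The siJunb against siControl call was lost without siJunb 1 (-1.39) and without siJunb 2 (-2.18), and the direct call was lost without siJunb 1 (1.75). These fits hold 1 siJunb library. The part of the low siJunb read counts, 12 and 16, in these losses was not tested. Some cardiomyocyte markers moved with Igfbp5 in the comparisons where it was called. Of 9 such markers 6 were tested. Of these, 2 fell with Junb knockdown against siControl, the sarcomeric genes Actc1 (-2.43) and Tnni3 (-0.92), and 4 rose in siH1f0 against siJunb, where 16.5% and 25.9% of all genes were called in these comparisons. In siH1f0 against siControl 1 of the 6 was called, Tnni3 as higher (0.68, adjusted p = 0.0114). There 6.55% of all genes were called, and Igfbp5 was not. The summed marker level was 144 and 155 CPM in siH1f0, 113.5 and 114.8 CPM in siJunb, against 148 and 129.6 CPM in siControl, with 4 of 9 markers under 1 CPM everywhere, Actn2 and Ryr2 among them. Most of each sum was Tnnt2, cardiac troponin T (94.0 to 110 CPM), which was not called in siJunb against siControl (0.02, adjusted p = 0.877) or in siH1f0 against siJunb (0.06, adjusted p = 0.562). Their part in the Igfbp5 result was not tested.

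Igfbp7 encodes a secreted protein that binds IGFs weakly and is abundant in vessels and stroma. Its gene is on chr5:77349240-77408041 (minus strand) and, at its end, meets that of Polr2b. Igfbp7 was at 43.1 and 46.5 CPM in siH1f0, 33.2 and 30.6 CPM in siJunb, against 37.0 and 35.97 CPM in siControl. The 3 groups did not overlap: siH1f0 was highest and siJunb lowest. Igfbp7 rose in siH1f0 by 0.28 ± 0.06 on the log2 scale against siControl (adjusted p = 0.0384) and by 0.44 ± 0.07 against siJunb (adjusted p = 0.00187). The call in siH1f0 against siJunb was kept in all 14 alternatives, whereas that against siControl was lost in 6 of 14, among them those without siH1f0 1 (adjusted p = 0.172), siH1f0 2 (0.315), siJunb 1 (0.0871) or siJunb 2 (0.0863) and with only the 4 libraries compared (0.0862). The siJunb against siControl value was -0.16 ± 0.07 (adjusted p = 0.138), and it was -0.17 without siControl 2. Polr2b, at 154 to 169 CPM, is more abundant than Igfbp7, and reads in the overlap could have been counted to either. Some markers of smooth muscle and pericytes were also higher in siH1f0. The 8 such markers summed to 162 and 166 CPM in siH1f0 and 124 and 122 CPM in siJunb, against 106 and 98.5 CPM in siControl. Most of each sum was Acta2 (58.0 to 114 CPM) and Mcam (27.7 to 36.6 CPM). Of the 6 tested, 2 were called in siH1f0 against siControl, where 6.55% of all genes were called. These were smooth muscle actin Acta2 (0.87, adjusted p = 1.07e-04) and Mcam (0.37, adjusted p = 0.0136), both higher. Both also rose in siJunb (0.33 and 0.36), where 16.5% of all genes were called and Igfbp7 was not. In siH1f0 against siJunb only Acta2 was called (0.54), where 25.9% of all genes were called. Des was lower in siH1f0 against siControl but was not called (-0.26, adjusted p = 0.300). Rgs5 had 0 counts, and Myh11 and Cnn1 stayed under 1 CPM. Cnn1 was lower in siH1f0 (0.101 and 0.0304 CPM) than in siControl (0.140 and 0.182 CPM). The part of these markers in the Igfbp7 result was not tested.

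Igfbp4, which encodes a binding protein that inhibits IGF action until the protease PAPPA cuts it, is on chr11:99041244-99054392 (plus strand). It was at 15.6 and 16.6 CPM in siH1f0, 12.3 and 12.5 CPM in siJunb, against 17.5 and 16.2 CPM in siControl. The siJunb libraries were the lowest, and siH1f0 and siControl overlapped. Igfbp4 fell by 0.40 ± 0.08 in siJunb against siControl (adjusted p = 0.00956) and was higher in siH1f0 than in siJunb by 0.32 ± 0.08 (adjusted p = 0.015). Against siControl, siH1f0 gave -0.08 ± 0.07 (adjusted p = 0.573). The siJunb call was lost without siJunb 1 (adjusted p = 0.104) or siJunb 2 (0.0887), and the direct call without siH1f0 1 (0.0700), siH1f0 2 (0.131), siJunb 1 (0.112) or siJunb 2 (0.0908).

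Igfbp6 and Igfbp3 completed the detected binding proteins. IGFBP6 binds IGF2 in preference to IGF1, and Igfbp6 lies on chr15:102144362-102149511 (plus strand). It was at 12.1 and 11.99 CPM in siH1f0, 7.98 and 8.87 CPM in siJunb, against 11.5 and 9.89 CPM in siControl. The siJunb libraries were the lowest and the siH1f0 libraries the highest, without overlap. Igfbp6 was higher in siH1f0 than in siJunb by 0.47 ± 0.10 (adjusted p = 0.0103), a call lost without siH1f0 1 (0.0789), siH1f0 2 (0.0672) or siJunb 1 (0.105). In siJunb against siControl Igfbp6 gave -0.32 ± 0.10 and did not pass (adjusted p = 0.0651), although it passed with no count filter (0.0156). In siH1f0 against siControl it gave 0.15 ± 0.10 (adjusted p = 0.397). Igfbp3, the main carrier of IGFs in blood, on chr11:7206086-7213923 (minus strand), was at 2.85 and 3.04 CPM in siH1f0, 2.49 and 2.36 CPM in siJunb, against 3.14 and 2.56 CPM in siControl. Its log2 fold changes were 0.03 ± 0.15 for siH1f0 against siControl, -0.20 ± 0.15 for siJunb against siControl and 0.23 ± 0.16 for siH1f0 against siJunb, with adjusted p = 0.935, 0.410 and 0.322. Igfbp2, on chr1:72824503-72852474 (plus strand), had 0 counts, which allows at most 0.0349 to 0.0616 CPM at 3 counts per library.

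**Figure D2:**
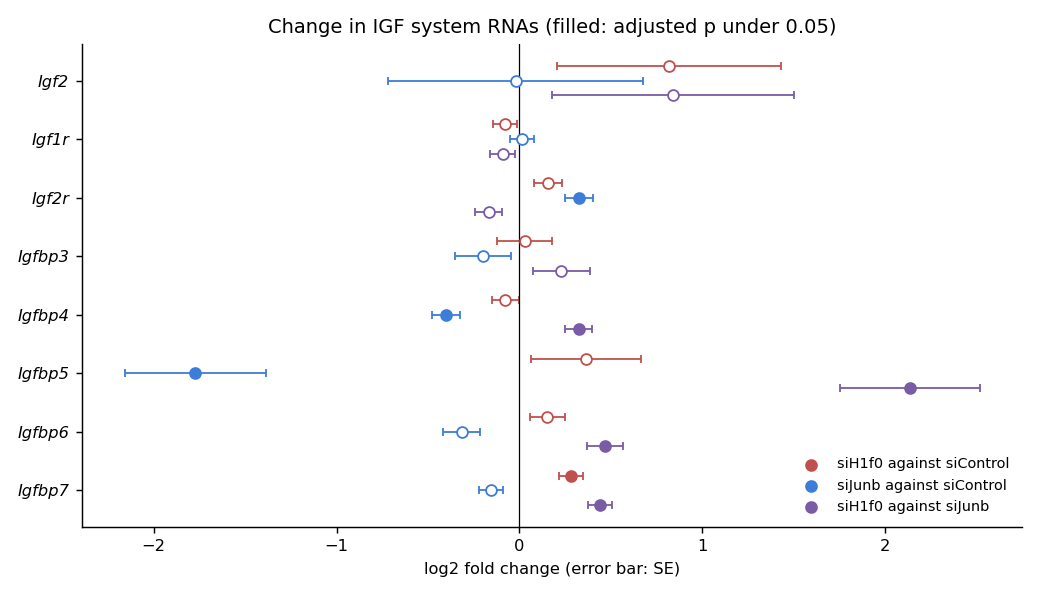
Log2 fold change of the 8 tested members in each comparison, with bars for the SE derived from the edgeR F test and filled symbols for an adjusted p under 0.05. Igfbp5 moves furthest, from -1.77 in siJunb against siControl to 2.13 in siH1f0 against siJunb, and Igf2 has the widest bars.

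Counted together, 1 of the 8 tested members was called in siH1f0 against siControl, as higher; of all genes tested 6.55% were called, 2.27% as higher and 4.27% as lower. In siJunb against siControl 3 of 8 were called, with Igf2r higher and Igfbp4 and Igfbp5 lower, where 16.5% of all genes were called, 8.63% as higher and 7.82% as lower. In siH1f0 against siJunb 4 of 8 were called, all higher and all binding proteins, where 25.9% of all genes were called, 12.2% as higher and 13.8% as lower. The median log2 fold change of the 8 members was 0.15, -0.18 and 0.38 in these comparisons, against medians of 0.0034, 0.0024 and 0.000715 over all genes tested. These shares describe 8 genes chosen with earlier results known, and the comparisons share libraries. Igf1 and Igfbp2 are not among the 8.

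Summed over the 6 binding proteins, transcript levels were 145.6 and 152.5 TPM in siH1f0, 108 and 104 TPM in siJunb and 127.6 and 126.1 TPM in siControl. The groups did not overlap. Igfbp7 supplied most of each sum, 66.6 ± 0.850% in siH1f0, 65.9 ± 2.17% in siJunb and 62.9 ± 1.46% in siControl (SD, n = 2 each). Igfbp6 supplied 16.8%, 16.4% and 17.3% in siH1f0, siJunb and siControl. The Igfbp4 share was 14.05 ± 0.0039% in siH1f0 and 15.1 ± 0.544% in siJunb, against 17.01 ± 0.204% in siControl, and the 3 groups did not overlap. Although Igfbp5 changed by the largest factor, it supplied 0.355% in siH1f0, 0.111% in siJunb and 0.321% in siControl.

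**Figure D3:**
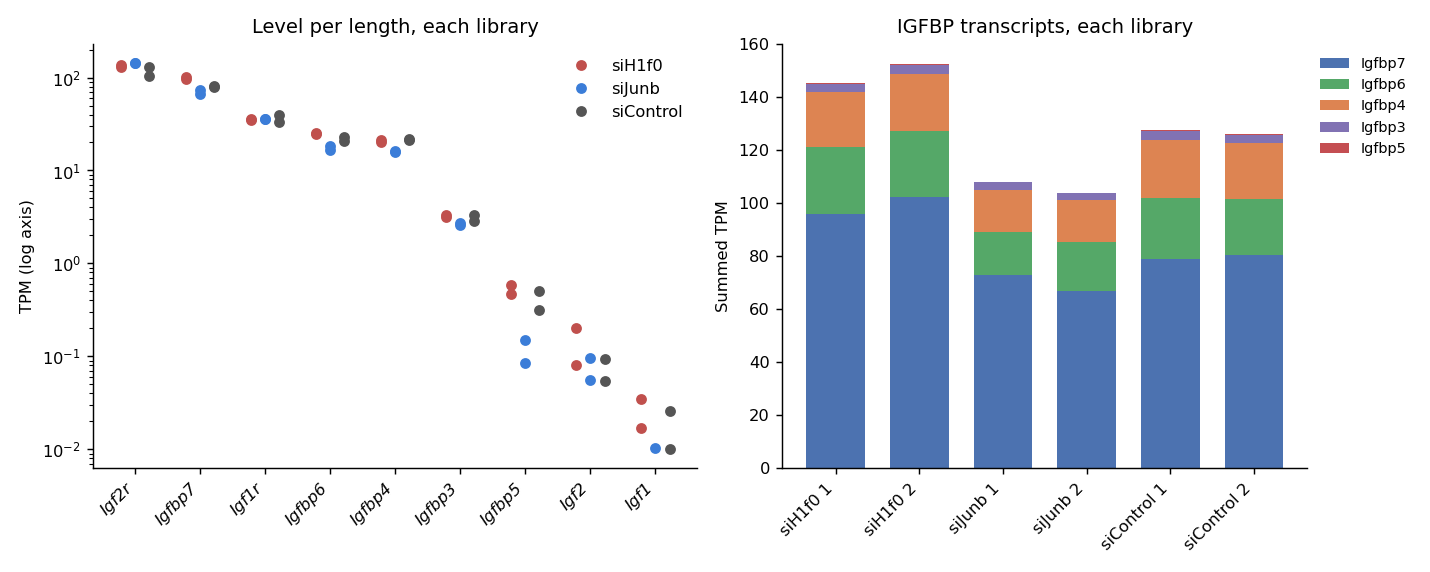
TPM of each detected member in each library on a log axis, ordered by mean level (the siJunb 2 library has no Igf1 point, at 0 counts), beside the summed TPM of the binding proteins in each library, stacked by gene. The sums are 145.6 and 152.5 TPM in siH1f0 and 108 and 104 TPM in siJunb, against 127.6 and 126.1 TPM in siControl, and Igfbp7 makes up most of each bar.

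The genes that act around these members were taken from 3 lists. Of 12 genes for proteases that cut binding proteins, their inhibitors and complex partners, 7 were tested. The 12 also include Igfbp1 and Igfbpl1, which are none of these and had 0 counts in every library. In siH1f0 against siControl 1 of 7 passed, as lower: Ctsd, the lysosomal protease cathepsin D, whose precursor IGF2R carries to lysosomes (-0.22, adjusted p = 0.043). In siJunb against siControl 2 of 7 passed, both higher: Adam9, a membrane metalloprotease (0.48, adjusted p = 0.00181), and Ctsd (0.35, adjusted p = 0.00366). Adam9 was at 317 and 310.4 CPM in siH1f0, 409.9 and 410.9 CPM in siJunb, against 286 and 318 CPM in siControl. Ctsd was at 792 and 809.9 CPM in siH1f0, 1166 and 1139 CPM in siJunb, against 973 and 876 CPM in siControl. For both genes the siJunb libraries lay above all others. In siH1f0 against siJunb 3 of 7 passed, all lower: Ctsd (-0.58), Adam9 (-0.44) and Stc2, an inhibitor of PAPPA (-0.20, adjusted p = 0.0397). Over all genes tested 6.55%, 16.5% and 25.9% were called in these 3 comparisons. Pappa itself was under 1 CPM in every library and was not called. The list's median log2 fold change was -0.20, 0.00357 and -0.39 in the siH1f0 against siControl, siJunb against siControl and siH1f0 against siJunb comparisons.

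Among 21 genes of the insulin receptor family and its proximal signalling, 19 were tested, and Insr was not called. In siH1f0 against siControl 1 rose and 1 fell: Grb14, an adaptor that inhibits the insulin receptor (0.26, adjusted p = 0.0384), and Irs1, the docking protein of IGF1R (-0.35, adjusted p = 0.0302). In siJunb against siControl 4 passed, all higher: Socs3, a feedback inhibitor of receptor signalling (0.51, adjusted p = 0.0018), Pik3cb, a catalytic subunit of PI3 kinase (0.31), Grb14 (0.32) and Irs2, a docking protein beside IRS1 (0.45, adjusted p = 0.0387). In siH1f0 against siJunb 1 rose and 5 fell, in order of p Socs3 (-0.71, adjusted p = 1.68e-04), Pik3cb (-0.44), the adaptor Shc1 (-0.25), Irs1 (-0.37) and Irs2 (-0.61). In siH1f0 against siControl, siJunb against siControl and siH1f0 against siJunb, 2, 4 and 6 of the 19 were called. These counts lie near the shares of all genes called, 6.55%, 16.5% and 25.9%. Socs3 was at 31.4 and 29.3 CPM in siH1f0, 49.5 and 46.1 CPM in siJunb, against 34.2 and 34.5 CPM in siControl, so that siJunb stood above both other groups.

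The AKT, FOXO and mTOR list is described by 18 genes, all of which were tested. In siH1f0 against siControl 1 rose and 1 fell: the S6 kinase gene Rps6kb1 (0.28, adjusted p = 0.0449) and Eif4ebp1, a translation repressor inactivated by mTOR (-0.26, adjusted p = 0.0301). In siJunb against siControl 1 of 18 passed, as lower: Rptor, the scaffold of mTOR complex 1 (-0.21, adjusted p = 0.0315). In siH1f0 against siJunb 2 rose and 1 fell: Rptor (0.38, adjusted p = 0.00164), Rps6kb1 (0.34, adjusted p = 0.00717) and Eif4ebp1 (-0.24, adjusted p = 0.0141). Rptor was at 114 and 109 CPM in siH1f0, 81.4 and 84.6 CPM in siJunb, against 96.3 and 100.9 CPM in siControl. The 3 groups did not overlap for Rptor: siH1f0 was highest and siJunb lowest. Against 6.55%, 16.5% and 25.9% of all genes, 2, 1 and 3 of the 18 were called in siH1f0 against siControl, siJunb against siControl and siH1f0 against siJunb. Of the 24 calls in the 3 lists, 7 were kept in all 6 fits that left out 1 library: Adam9 and Socs3 in siJunb against siControl, and Adam9, Ctsd, Socs3, Pik3cb and Rptor in siH1f0 against siJunb. The others were lost without at least 1 siH1f0 or siJunb library, at adjusted p up to 0.353, and 0 changed sign.

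**Figure D4:**
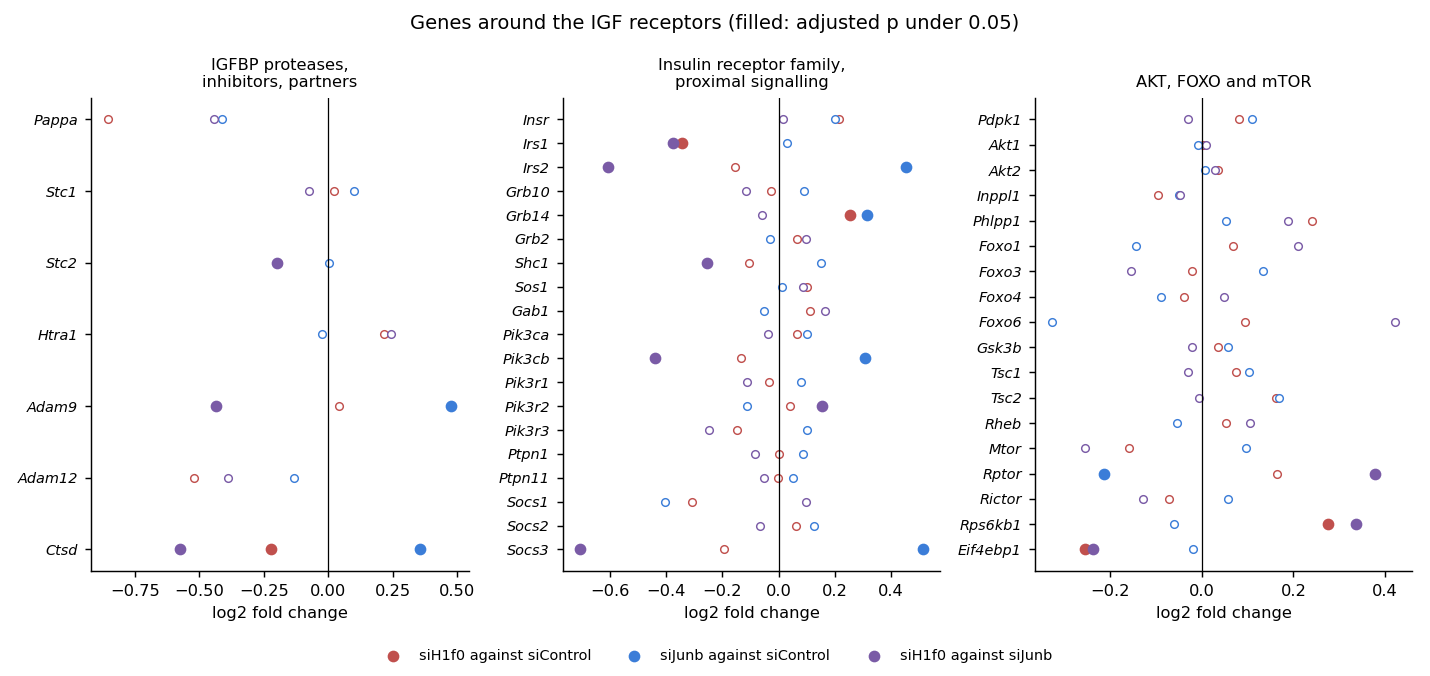
Log2 fold change of the tested genes described from the 3 lists in each comparison, with filled points for an adjusted p under 0.05. Socs3 and Adam9 sit furthest right among the filled siJunb against siControl points (0.51 and 0.48), and Irs1 sits furthest left among the filled siH1f0 against siControl points (-0.35).

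Genes with a profile most like that of a member were sought among 9912 genes with a mean of at least 5 CPM, by the Euclidean distance between log2 CPM profiles centred on the mean of the 6 libraries. For Igfbp7, the member with the smallest p in both siH1f0 comparisons, they were Evi5l (distance 0.091), Pcx (0.0978) and Haus5 (0.103), where the median gene lay at 0.515. For Igfbp4, the member with the smallest p in siJunb against siControl, they were Hirip3 (0.0426), Ube2c (0.0475) and Cyth2 (0.0674), where the median gene lay at 0.503. These distances describe the 6 libraries, and no test was made on them.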

How the data were processed

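Poly(A) RNA-seq libraries of siH1f0, siJunb and siControl cells (2 each) were grouped by the sample labels. The deposited table holds raw read counts per gene, made by the authors with HISAT2, Subread and featureCounts on mm10, per the submitters' processing notes. Versions, annotation, strand setting and multimapping treatment: not given in the sources used here. The deposited gene length column was used for TPM. The test was edgeR 4.0.16 under R 4.3.3, with TMM scaling, the filterByExpr filter (13427 genes), a quasi-likelihood F test on the 6 libraries by group alone (3 residual degrees of freedom) and Benjamini-Hochberg adjustment; genes were called at an adjusted p under 0.05. P-values measure the spread between these libraries, which may be partly technical. A fit with a library left out has 1 library in that group, so its p-values take their spread from the other groups. CPM use library totals. Errors are SDs between libraries, or SEs for log2 fold changes, and a floor of 3 counts covers counting error only. The SEs were derived from the F test, as the absolute log2 fold change over the square root of F. The method was tested on simulated data. Promoters are RefSeq (GRCm38.p6) and gene positions GENCODE vM21 (GRCm38). Alternatives used other scaling (RLE, library totals), other filters, DESeq2 1.42.0, limma-voom 3.58.1, a replicate block, the 4 libraries compared, and each library left out in turn.

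The members and lists were chosen with earlier results of these data known. Named are all 10 members, Junb and H1f0, and from each list up to 4 called genes with the smallest p per comparison, or all where 5 or fewer were called; other genes named as background, markers, neighbours or uncalled examples were added after their values were seen. The 3 comparisons share libraries. Some list genes are not reported here, and list counts leave them out; they stayed in the fit.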

Additional observations from a re-analysis of the deposited data

How the results depend on the processing

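Of the 4 directly compared binding proteins higher in siH1f0 than in siJunb, Igfbp7 passed in all 14 alternatives, and Igfbp4, Igfbp5, Igfbp6 and Igfbp7 kept their direction in every alternative of that comparison. For siH1f0 against siControl the count of genes called, 879 over all genes, was 1921 with no count filter, 550 with the replicate block, 325 with only the 4 libraries compared and 116 to 4932 with a library left out. The count of members, 1, was 0 with the replicate block, 0 with the 4 libraries and 0 to 2 with a library left out. For siJunb against siControl 2209 genes became 1094 with the 4 libraries and 352 to 5521 with a library left out, and 3 members became 0 to 6. For siH1f0 against siJunb 3484 genes became 6416 with the 4 libraries and 1304 to 6435 with a library left out, and 4 members became 1 to 6. All-gene counts were lowest without a siH1f0 or siJunb library and highest without a siControl library. With library totals only, 884 genes were higher and 1369 lower in siJunb against siControl, where TMM gave 1159 and 1050, and 2222 were higher and 1340 lower in siH1f0 against siJunb, where TMM gave 1637 and 1847.

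Signs turned for values near 0. In siH1f0 against siControl, Igf1r ranged from -0.177 (without siControl 1) to 0.023 (without siControl 2) over the fits with a library left out, and Igfbp3 from -0.10 (without siControl 2) to 0.178 (without siControl 1), also turning without siH1f0 2 (-0.02). In siJunb against siControl, Igf2 was 0.0196 with limma-voom and 0.0087 with the replicate block, and ranged from -0.424 (without siJunb 2) to 0.48 (without siControl 1), turning also without siJunb 1 (0.37). In that comparison Igf1r was -0.0195 with library totals only and -0.0013 with a mean of at least 5 CPM, and ranged from -0.0834 (without siControl 1) to 0.113 (without siControl 2). Igfbp6 passed in siJunb against siControl with library totals only (adjusted p = 0.0488). The cause was not tested.

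Same-numbered libraries did not deviate together (r = 0.063 for siH1f0 and siJunb, -0.041 for siH1f0 and siControl, 0.048 for siJunb and siControl), so the numbers were not taken to pair them. With the replicate block Igfbp7 was not called in siH1f0 against siControl (adjusted p = 0.0730), and no other member call was lost. Of the 24 list calls 7 were lost with that block, at adjusted p = 0.0502 to 0.0760: Ctsd, Grb14, Eif4ebp1 and Rps6kb1 in siH1f0 against siControl, Rptor in siJunb against siControl, and Stc2 and Pik3r2 in siH1f0 against siJunb. Depth limits Igf1, Igf2, Igfbp2 and, in siJunb, Igfbp5. DESeq2 gave no adjusted p for Igf2 in either siControl comparison. Igf2, Igfbp3 and Igfbp5 have no value with a mean of at least 5 CPM, which they did not reach.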
